A study of Mus musculus with 24 samples.

Results

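The tricarboxylic acid cycle enzymes described here were the 9 genes of the deposited table that carry the symbols *Cs*, *Idh3a*, *Idh3b*, *Idh3g*, *Ogdh*, *Sdha*, *Sdhb*, *Fh1* and *Mdh2*. They were taken by name from 15456 genes, and all 9 were found once each. The study sequenced poly(A) RNA from the medial prefrontal cortex (mPFC) of 24 BALB/C mice at postnatal week 11, with 6 mice in each of 4 groups. Control mice received no drug. According to the methods, controls were given an equal volume of buffer in place of the injected drug and a gavage of buffer without bacteria. The duloxetine group received daily intraperitoneal duloxetine, an antidepressant that inhibits serotonin and norepinephrine reuptake. The *R. flavefaciens* group was gavaged with the gut bacterium *Ruminococcus flavefaciens*. The labels give this as 2 times a week and the methods as daily at first and at that rate later. The combined group received both treatments, so the design asks whether the bacterium or the drug altered mPFC transcripts and whether the bacterium did so in the presence of the drug. The tissue was punched from slices of frontal cortex and carries the label prefrontal cortex. A mouse is called here by its label number, such as 7_2.

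The tricarboxylic acid cycle runs in the mitochondrial matrix and oxidizes the acetyl group delivered from pyruvate to carbon dioxide. It hands the electrons to the respiratory chain, whose complex I takes them from NADH and whose complex II is itself a cycle enzyme, succinate dehydrogenase. In neurons the cycle also supplies the carbon of the transmitters glutamate and GABA. Citrate synthase (*Cs*) opens the cycle, NAD-dependent isocitrate dehydrogenase is built of a catalytic alpha subunit (*Idh3a*) and the beta and gamma subunits (*Idh3b*, *Idh3g*), and *Ogdh* encodes the dehydrogenase component of the 2-oxoglutarate dehydrogenase complex. Succinate dehydrogenase holds a flavoprotein (*Sdha*) and an iron-sulfur subunit (*Sdhb*), fumarase (*Fh1*) makes malate, and mitochondrial malate dehydrogenase (*Mdh2*) closes the cycle.

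The 9 genes lie on 9 chromosomes of GRCm38. *Cs* spans chr10:128337734-128362479 on the plus strand, *Idh3a* chr9:54586334-54604661 on the plus strand, *Idh3b* chr2:130279309-130284547 on the minus strand and *Idh3g* chrX:73778963-73786897 on the minus strand. *Ogdh* spans chr11:6291633-6356642 on the plus strand, *Sdha* chr13:74322254-74350280 on the minus strand and *Sdhb* chr4:140961203-140979193 on the plus strand. *Fh1* spans chr1:175600374-175625635 on the minus strand and *Mdh2* chr5:135778480-135790398 on the plus strand. RefSeq promoter windows of GRCm38.p6 matched 8 of the 9 symbols, with 13 windows in all since *Ogdh* has several starts.

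Each window was searched, on both strands and in the 250 bases before the start, for the letters of 4 factors linked with genes of mitochondrial metabolism or activity in neurons. These were GCGC and TGCGC with any base between them for NRF1, CCGGAAG for GABPA, AAGGTCA for the estrogen-related receptor alpha and TGACGTCA for CREB, and none of the 4 contains another. TGACGTCA stood before a RefSeq start of 2 of the 8 genes, *Mdh2* and *Ogdh*. By window this was 4 of the 13, those of *Ogdh* overlapping and holding the same match, against 1.55% of all 32851 promoter windows. The *Mdh2* window runs into the gene as placed above, and its match lies inside the gene. The letters of NRF1 stood before the RefSeq start of *Sdha* alone among the 8, with 3 matches. This was 1 of the 13 windows, against 3.74% of all windows. The *Sdha* window also runs into the gene, and the last of its matches lies inside the gene. CCGGAAG stood before *Idh3g* alone, in 1 of the 13 windows, against 6.91% of all windows. AAGGTCA stood before none of the 8, against 4.08% of all windows. A match describes the letters and says nothing of binding. As examples, 3 windows are shown. Of the windows that hold a match and end before the gene's start in the deposited table, *Ogdh* has 2 that overlap, 6291347 to 6291596 and 6291356 to 6291605. The first of these and that of *Idh3g* are printed in lower case, 5′ to 3′ on the gene's strand, with the match in capitals, beside the window of *Cs*, which has none. The printed *Ogdh* window is chr11:6291347-6291596 on the plus strand, that of *Idh3g* chrX:73786898-73787147 on the minus strand and that of *Cs* chr10:128337477-128337726 on the plus strand.
Ogdh: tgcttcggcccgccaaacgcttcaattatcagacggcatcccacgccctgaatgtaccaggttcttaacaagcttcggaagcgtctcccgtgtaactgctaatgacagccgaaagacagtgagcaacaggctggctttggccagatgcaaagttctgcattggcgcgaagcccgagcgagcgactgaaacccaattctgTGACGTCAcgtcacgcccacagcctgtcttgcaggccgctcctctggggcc
Idh3g: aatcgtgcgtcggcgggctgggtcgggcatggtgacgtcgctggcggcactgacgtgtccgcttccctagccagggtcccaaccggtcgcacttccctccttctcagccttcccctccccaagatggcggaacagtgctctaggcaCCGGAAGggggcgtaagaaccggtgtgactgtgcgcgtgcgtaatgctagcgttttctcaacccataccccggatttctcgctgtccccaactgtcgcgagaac
Cs: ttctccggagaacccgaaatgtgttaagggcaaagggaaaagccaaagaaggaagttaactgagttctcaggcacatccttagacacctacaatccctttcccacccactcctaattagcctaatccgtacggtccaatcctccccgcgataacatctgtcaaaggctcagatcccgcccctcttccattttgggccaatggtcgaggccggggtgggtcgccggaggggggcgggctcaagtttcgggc

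The values are normalized counts, that is, read counts per gene divided by 1 scaling factor per mouse. The reads recovered from these values summed to between 12811413 and 15607343 per mouse, with a median of 14455107, and the group medians lay between 13591497 in controls and 14621656 in the combined group. All 9 genes were well covered. The least abundant, *Fh1*, had a mean of 947 normalized counts and ranked 3426 of all genes in the table, and the most abundant, *Sdha*, had 5223 and ranked 433.

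Set against transcript length, *Mdh2* stood highest, with 2340 ± 161 normalized counts per kilobase (SD, n = 24), followed by *Sdha* with 1801 ± 61.7. The next 6 genes formed a run of neighbours whose ranges over the 24 mice overlapped, from *Idh3b* with 1230 ± 77.7 normalized counts per kilobase, through *Sdhb* with 1170 ± 88.5, *Cs* with 1137 ± 45.1, *Idh3a* with 1083 ± 73.9 and *Idh3g* with 979 ± 55.4, to *Ogdh* with 937 ± 56.1. *Fh1* was lowest with 359 ± 22.9. The steps from *Mdh2* to *Sdha*, from *Sdha* to *Idh3b* and from *Ogdh* to *Fh1* were the ones without overlap, in all 24 mice. Within isocitrate dehydrogenase the means of the 3 subunits thus ran from 979 to 1230 normalized counts per kilobase. In succinate dehydrogenase the means were 1801 for the flavoprotein transcript *Sdha* and 1170 for *Sdhb*, and *Sdha* was above *Sdhb* in every mouse.

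The markers of cortical tissue were present. All 6 markers of excitatory neurons, 6 of inhibitory neurons, 6 of astrocytes, 6 of oligodendrocytes and 6 of microglia were in the table, and the most abundant of the excitatory list was *Camk2a* with a mean of 52794 normalized counts. Of 5 markers of choroid plexus, *Folr1* and *Kcnj13* were not in the table, and the summed level of the other 3 was highest in mouse 8_4 of the *R. flavefaciens* group, at 791 normalized counts against a highest control of 64.2. The same mouse had the highest sum of the 6 striatal markers, 4720 against a highest control of 1937. In a bulk sample, fewer cells of a type and less RNA per cell cannot be told apart. P-values here measure the spread between mice of 1 experiment.

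Before the comparisons, 5 mice lay on the same side of the 24-mouse mean in all of the 9 genes at once. In the *R. flavefaciens* group, 7_2 lay above the 24-mouse mean in 9 of the 9 genes. In the combined group, 10_2 lay above the mean in 9 of 9, while 11_3, 11_4 and 12_2 were above it in 0 of 9. The other 19 mice had between 1 and 7 of 9 above it, among them 9_3 of the *R. flavefaciens* group, with 7 of 9 and the highest *Idh3g*, *Sdhb* and *Mdh2* of all mice but the lowest *Ogdh*. Control mice varied least in 8 of the 9 genes, *Sdhb* being the exception, where the duloxetine group had a coefficient of variation of 3.42%. The control coefficient of variation, the SD as a percentage of the mean, lay between 1.43% for *Sdha* and 3.56% for *Sdhb*, whereas it reached 11.2% for *Sdhb* in the *R. flavefaciens* group and 10.0% for *Idh3a* in the combined group.

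**Figure D1:**
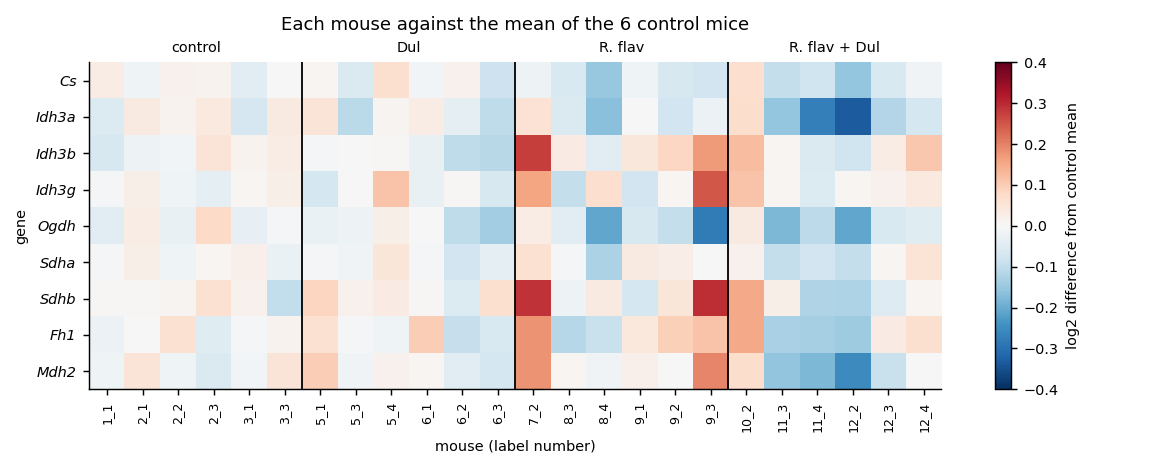
Difference of each mouse (columns, by label number and group) from the mean of the 6 control mice for each of the 9 genes (rows), on the log2(normalized count + 1) scale, with red for higher and blue for lower. Mice 7_2 and 10_2 are red in nearly all rows, 9_3 is red in 5, 11_3, 11_4 and 12_2 are blue in most, and control mice are pale.

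Duloxetine alone left all 9 transcripts close to control. *Cs*, for example, ranged from 3305 to 3471 normalized counts with a median of 3417 in controls, and from 3214 to 3552 with a median of 3397 after duloxetine. *Mdh2* ranged from 3285 to 3547 with a median of 3390 in controls and from 3258 to 3660 with a median of 3415 after duloxetine. The groups overlapped for every one of the 9 genes. Genes averaging under 10 normalized counts were not tested, which left 14974. In the limma fit across these, log2 fold changes lay between -0.04 for *Ogdh* and 0.02 for *Sdhb*, with standard errors from 0.04 to 0.06. The number of the 9 genes with an unadjusted p under 0.05 was 0, against 3.83% of all genes tested, and 0 passed an adjusted p of 0.05 (Benjamini-Hochberg over all genes tested), against 0% of all genes tested. The 95% interval for *Sdha*, from -0.09 to 0.06 on the log2 scale, was the narrowest, and that for *Sdhb*, from -0.09 to 0.14, the widest.

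*R. flavefaciens* alone had the 9 transcripts on both sides of control. *Sdhb*, *Idh3b*, *Mdh2*, *Idh3g* and *Fh1* had log2 fold changes above 0 and *Ogdh*, *Cs*, *Idh3a* and *Sdha* below 0, although *Sdha* turned above 0 under rescaling to the 75th percentile or quantile normalization, and 2 were above and 7 below 0 with the length trend removed, described further on, or without mice 7_2 and 9_3. None of the 9 was called at an adjusted p under 0.05 (limma), against 0.0267% of all genes tested. *Ogdh*, 1 of 9, had an unadjusted p under 0.05, against 19.6% of all genes tested. The share among the 9 was thus no higher than among all genes.

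*Ogdh* ranged from 3914 to 4251 normalized counts with a median of 3981 in controls and from 3318 to 4110 with a median of 3815 in the *R. flavefaciens* group. Mouse 7_2 was the 1 mouse of the group above the control mean, and the other 5 lay below all controls. The log2 fold change was -0.11 with a standard error of 0.05 (limma adjusted p = 0.212), and an exact permutation test over all groupings of the 12 mice into 6 and 6, two-sided, gave p = 0.0455. Under quantile normalization the log2 fold change of *Ogdh* was -0.06 (limma adjusted p = 0.41).

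*Cs* ranged from 3062 to 3357 normalized counts with a median of 3254 in the *R. flavefaciens* group. All 6 mice were below the control mean and 4 of them below all controls, although the groups overlapped. The log2 fold change was -0.07 with a standard error of 0.04 (limma adjusted p = 0.348), while the exact permutation test, two-sided, which uses only the 12 mice of the 2 groups, gave p = 0.0108. Under quantile normalization the log2 fold change of *Cs* was -0.02 (limma adjusted p = 0.771).

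For *Idh3b* the *R. flavefaciens* group ranged from 1900 to 2374 normalized counts with a median of 2047, against 1872 to 2031 with a median of 1960 in controls. In all, 3 mice were above all controls, the highest being 7_2. The log2 fold change was 0.09 with a standard error of 0.05 (limma adjusted p = 0.272, exact permutation p = 0.0801, two-sided). Without 7_2 the log2 fold change of *Idh3b* was 0.06, without 7_2 and 9_3 it was 0.03 and with the length trend removed 0.02. *Sdhb* gave a similar value, 0.10 with a standard error of 0.06. It ranged from 1245 to 1607 normalized counts with a median of 1348, against 1223 to 1365 with a median of 1315 in controls, and 7_2 and 9_3 were the mice above all controls (limma adjusted p = 0.363). Without these 2 mice the log2 fold change of *Sdhb* was -0.001.

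In the combined group 7 of the 9 transcripts had log2 fold changes below 0 relative to control, *Idh3b* and *Idh3g* being the exceptions, but 4 of 9 were below 0 under rescaling to the 75th percentile and 3 of 9 under quantile normalization, where *Idh3a*, *Mdh2* and *Ogdh* were still below. None was called at an adjusted p under 0.05 (limma), against 0.1% of all genes tested, and 1 of 9, *Idh3a*, had an unadjusted p under 0.05, against 16.8% of all genes tested.

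*Idh3a*, the catalytic subunit, ranged from 2760 to 2973 normalized counts with a median of 2943 in controls and from 2300 to 3037 with a median of 2636 in the combined group. Among the 6 mice, 5 lay below all controls and 1, 10_2, above all of them. The log2 fold change was -0.15 with a standard error of 0.05, a difference of -9.61% with a 95% interval from -0.25 to -0.04 on the log2 scale (limma adjusted p = 0.186, exact permutation p = 0.0411, two-sided). Under quantile normalization the log2 fold change of *Idh3a* was -0.09 (limma adjusted p = 0.4).

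*Ogdh* and *Mdh2* came next. *Ogdh* ranged from 3487 to 4132 normalized counts with a median of 3802 in the combined group, again with 5 of 6 mice below all controls, and had a log2 fold change of -0.09 with a standard error of 0.05 (limma adjusted p = 0.328, exact permutation p = 0.0498, two-sided). *Mdh2* ranged from 2865 to 3591 with a median of 3143, with 4 mice below all controls and 10_2 above all of them. Its log2 fold change was -0.10 with a standard error of 0.05 (limma adjusted p = 0.304, exact permutation p = 0.0866, two-sided). Under quantile normalization both *Ogdh* and *Mdh2* had log2 fold changes of -0.04, and under rescaling to the 75th percentile -0.06 and -0.07.

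**Figure D2:**
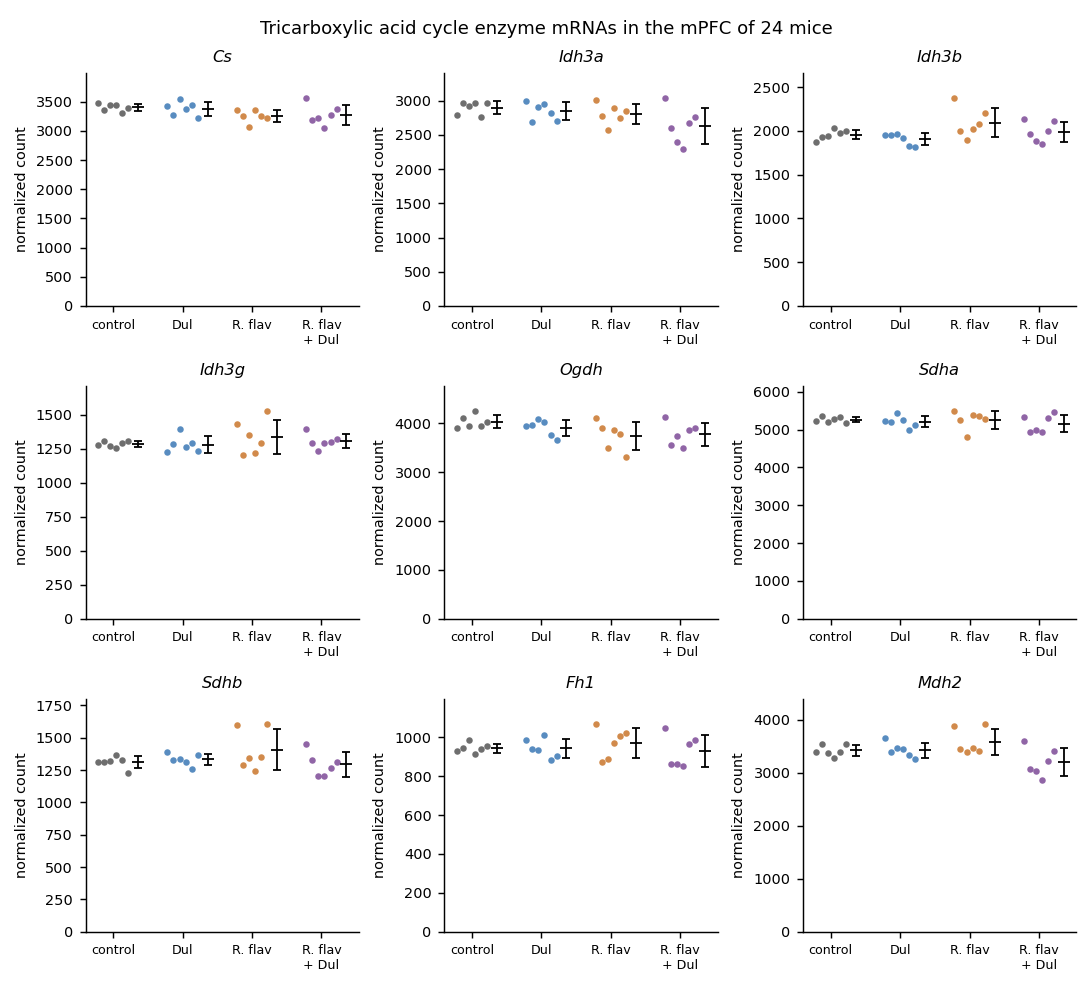
Normalized count (vertical axes, from 0) of each of the 9 genes in each mouse (points) of the 4 groups, with the mean and SD of the group beside the points (n = 6). Groups overlap in every panel, controls vary least in all panels but that of *Sdhb*, and the lowest *Idh3a* and *Mdh2* values belong to the combined group.

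Against duloxetine alone, the combined group addressed the bacterium in the presence of the drug. Of the 9 transcripts, 1 had an unadjusted p under 0.05, against 5.9% of all genes tested, and 0 of 9 were called at an adjusted p under 0.05 (limma), against 0%. This was again *Idh3a*, which ranged from 2687 to 2998 normalized counts with a median of 2869 after duloxetine alone. Of the 6 mice of the combined group, 4 were below all mice given duloxetine alone and 10_2 was above them, and the log2 fold change was -0.12 with a standard error of 0.05 (limma adjusted p = 0.816, exact permutation p = 0.102, two-sided). The count of the 9 at an unadjusted p under 0.05 was 0 under rescaling to the 75th percentile, quantile normalization or with only the groups compared. It was 2 with the length trend removed, without 7_2 and 9_3 or with the block described further on.

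Against *R. flavefaciens* alone, the combined group addressed the drug in the presence of the bacterium, and *Mdh2* differed most among the 9. *Mdh2* ranged from 3388 to 3921 normalized counts with a median of 3453 in the *R. flavefaciens* group, the highest being 9_3 and 7_2, so 4 of the 6 combined mice lay below all of them and none above. The log2 fold change was -0.17 with a standard error of 0.05, a difference of -10.9% with a 95% interval from -0.27 to -0.06 on the log2 scale (limma adjusted p = 0.0724, exact permutation p = 0.0281, two-sided). DESeq2 on the recovered reads gave it an adjusted p of 0.0408 and edgeR 0.0875. Leaving out each of the 24 mice in turn gave limma adjusted p-values from 0.0351 without 10_2 to 0.165 without 11_3. It was also under 0.05 without 8_4 (0.049) and 12_4 (0.0482), while it was 0.149 without 12_2 and 0.146 without 7_2 or without 9_3. With only the groups compared in the fit it was 0.276. Without 7_2 and 9_3 the log2 fold change of *Mdh2* was -0.10 with a standard error of 0.05 (limma adjusted p = 0.328). It was the 1 of 9 transcripts with an unadjusted p under 0.05, against 19.7% of all genes tested, and 0 of 9 were called at an adjusted p under 0.05, against 2.23% of all genes tested. Markers of RNA fractions and cell types also differed here. Of 5 nuclear-retained RNAs, led by *Meg3*, 3 had an unadjusted p under 0.05 with a higher value in the combined group, against 9.76% of all genes tested, and their sum was 45312 ± 7072 normalized counts against 32015 ± 10986 after *R. flavefaciens* alone (SD, n = 6). Of 6 astrocyte markers, led by *Slc1a2*, 2 had such a p with a higher value, and their sum was 68465 ± 8226 against 58899 ± 7233. Of 6 markers of inhibitory neurons, led by *Gad1*, 2 had such a p with a lower value, against 9.9% of all genes tested, and their sum was 10459.9 ± 651 against 10927 ± 388. None of these was called at an adjusted p under 0.05 (limma), and their part in the value of *Mdh2* was not tested.

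Whether the drug acted differently with and without the bacterium was tested by the interaction term of the same fit. *Mdh2* was the 1 of 9 transcripts with an unadjusted p under 0.05, against 7.53% of all genes tested, with a value of -0.17 on the log2 scale and a standard error of 0.07 (limma adjusted p = 0.639). The value for *Mdh2* was -0.11 with the length trend removed and -0.10 without 7_2 and 9_3, and the count of transcripts was then 0. No member passed an adjusted p of 0.05, against 0% of all genes tested.

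Averaged over the presence of the drug, the bacterium gave 4 of 9 transcripts with an unadjusted p under 0.05, against 18.1% of all genes tested. *Idh3a*, *Ogdh* and *Cs* had values of -0.08, -0.08 and -0.06 on the log2 scale, with standard errors of 0.04, 0.03 and 0.03, and *Idh3b* had 0.08 with 0.03. Without 7_2 and 9_3 the count was 3, since *Idh3b* no longer had such a p, and the highest value of the 9 was 0.05. In that fit 5.48% of all genes tested had such a p with a higher value and 7.69% with a lower one. Under rescaling to the 75th percentile or quantile normalization the count was 1, *Idh3b*. With the length trend removed it was 3, since *Idh3b* and *Ogdh* no longer had an unadjusted p under 0.05 and *Mdh2*, at -0.08, then did (limma adjusted p = 0.419). In that fit 5.09% of all genes had such a p with a higher value and 6.66% with a lower one. As deposited, *Idh3a*, *Ogdh*, *Cs* and *Idh3b* all missed the adjusted threshold, with limma adjusted p-values of 0.243, 0.224, 0.272 and 0.22, and 0.0267% of all genes tested passed it. Averaged over the bacterium, the drug gave 1 of 9, *Mdh2*, with -0.08 and a standard error of 0.04 (limma adjusted p = 0.262), against 14.9% of all genes tested at an unadjusted p under 0.05 and 1.03% at the adjusted one. This count was 0 under rescaling to the 75th percentile, under quantile normalization or without 7_2 and 9_3. Without 7_2 and 9_3 the lowest value of the 9 was -0.05. The 3 comparisons with control share the 6 control mice, and the averaged comparisons use all 24 mice, so their values are not independent of each other.

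**Figure D3:**
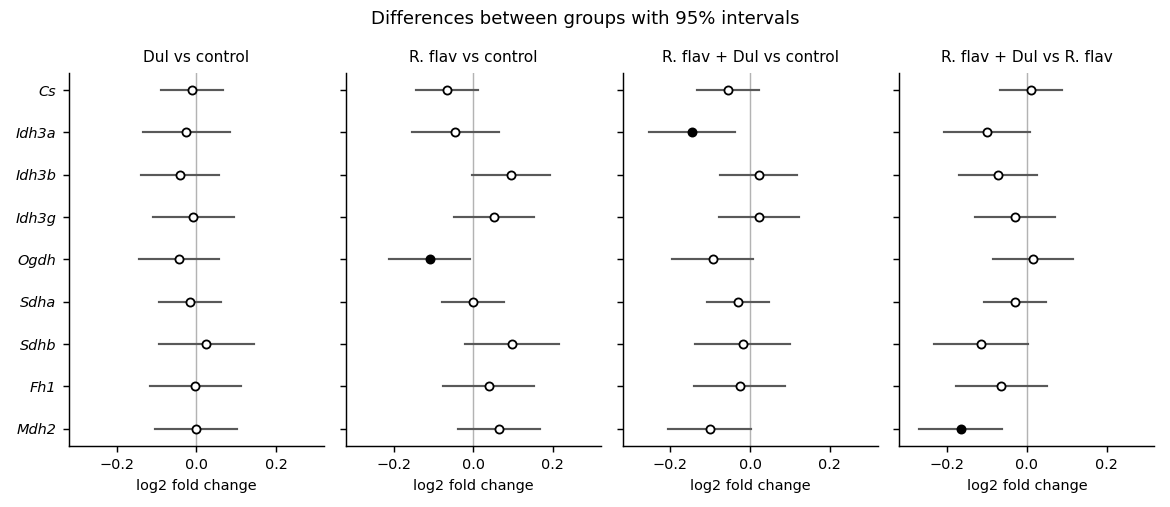
Log2 fold change (points) with its 95% interval (lines) for the 9 genes in 4 comparisons of 2 groups, from the limma fit across all genes. Filled points have an unadjusted p under 0.05, which holds for *Ogdh*, *Idh3a* and *Mdh2* once each in the 3 right panels and for none after duloxetine alone, and no point passed the adjusted threshold.

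Since isocitrate dehydrogenase and succinate dehydrogenase hold several subunits, the ratios of subunit transcripts of the same enzyme were formed in each mouse. This was done after the values of *Idh3a* and *Idh3b* had been seen, so the 4 ratios are described without a test. The ratio of *Idh3a* to *Idh3b* ranged from 1.40 to 1.54 with a median of 1.49 in controls and from 1.37 to 1.55 with a median of 1.51 after duloxetine. It ranged from 1.27 to 1.43 with a median of 1.34 in the *R. flavefaciens* group and from 1.24 to 1.43 with a median of 1.31 in the combined group. Thus, as deposited, 5 of 6 mice of either group given the bacterium lay below all controls and 1 overlapped them, and the highest in the combined group was again 10_2. No share over other pairs of genes is given, so nothing further is read from this.

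On the log2 scale the ratio of *Idh3a* to *Idh3b* differed from control by -0.14 in the *R. flavefaciens* group and by -0.17 in the combined group, where the SD between mice was 0.07 in both and 0.05 in controls. The corresponding difference after duloxetine alone was 0.02. The ratio of *Idh3a* to *Idh3g* had a mean of 2.25 ± 0.08 in controls, 2.23 ± 0.14 after duloxetine, 2.11 ± 0.20 in the *R. flavefaciens* group and 2.01 ± 0.14 in the combined group (SD, n = 6), and 5 of the 6 combined mice lay below all controls. The ratio of *Idh3b* to *Idh3g*, the other pair of this enzyme, had means from 1.49 to 1.57 in the 4 groups and that of *Sdha* to *Sdhb* from 3.77 to 4.02, with overlapping ranges.

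**Figure D4:**
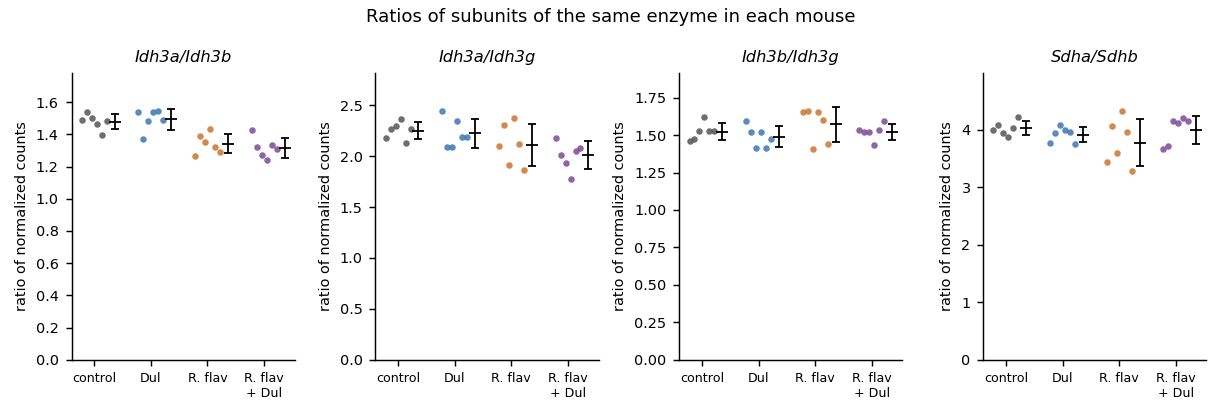
Ratio of the normalized counts of 2 subunits of the same enzyme (vertical axes, from 0) in each mouse (points), with mean and SD by group (n = 6). For *Idh3a* to *Idh3b*, as deposited, both groups given *R. flavefaciens* have 5 of 6 mice below all controls and 1 within their range. For *Idh3b* to *Idh3g*, 2 mice of the *R. flavefaciens* group and 1 of the combined group lie below all controls.

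The length of the transcripts moved with these values. *Idh3a* has a transcript of 2580 bases and *Idh3b* one of 1616, and the 9 genes run from 1142 bases for *Sdhb* to 4127 for *Ogdh*. In each mouse, the deviation of all genes from their means was ranked against transcript length. Spearman's rho, given as a description across genes, lay between 0.11 and 0.26 in controls and between -0.57 and 0.12 in the *R. flavefaciens* group, where 9_3 was lowest and 7_2 next with -0.32. It lay between -0.09 and 0.24 after duloxetine and between -0.17 and 0.12 in the combined group. With the trend on length taken off in each mouse, the log2 fold change of *Idh3b* in the combined group against control was -0.04. All 9 genes had values below 0 in that comparison, as had 8576 of all 14958 genes in that fit. The median of the 9 was then -0.09, against -0.02 over all genes tested. *Idh3a* with -0.18, *Mdh2* with -0.17 and *Ogdh* with -0.10 had an unadjusted p under 0.05 (limma adjusted p = 0.112, 0.112 and 0.261). Of all genes in that fit, 12.4% had such a p with a lower value and 6.07% with a higher one. With the trend taken off, the ratio of *Idh3a* to *Idh3b* differed from control by -0.08 in the *R. flavefaciens* group and by -0.14 in the combined group. In these groups 2 of 6 and 5 of 6 mice then lay below all controls. The part of RNA quality or library preparation in this was not tested.

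Genes of other enzymes of the same organelle, taken by symbol, gave a scale for the 9 genes. The first list held 37 genes whose symbols start with Nduf, without the assembly factors. It is made up of subunits of complex I, the entry of electrons from NADH, besides *Ndufa4*, a subunit of complex IV, and its paralogue *Ndufa4l2*. The second held 16 genes whose symbols start with Atp5, which encode subunits of ATP synthase, besides *Atp5s*, a coupling factor. Among the 37 the median log2 fold change after *R. flavefaciens* was 0.20 and 27 had an unadjusted p under 0.05 with a higher value, none with a lower one. Among the 16 it was 0.17 and 13 of 16. Leaving out the 3 genes named above gave medians of 0.20 and 0.18, with 26 of 35 and 13 of 15. Of all 14974 genes tested, 1327 had such a p with a higher value, and with the length trend removed the counts were 8 of 37 and 4 of 16, against 825 of all 14958 genes in that fit. None of these was called at an adjusted p under 0.05 (limma), and both of these medians were above 0 under every scaling tried. The median of the 9 cycle enzymes was 0.04 and that of all genes tested 0.00. The Nduf and Atp5 transcripts are short, with median lengths of 934 and 896.5 bases against 2580 for the cycle enzymes, and with the length trend taken off the medians were 0.06, 0.06 and -0.03. Against control, the combined group had medians of 0.09, 0.03 and -0.03 as deposited, and of -0.02, -0.04 and -0.09 with the length trend removed. Under rescaling to the 75th percentile the 3 medians of the combined group were 0.12, 0.07 and 0.001, against 0.03 over all genes tested. Under quantile normalization they were 0.09, 0.08 and 0.007, against -0.006 over all genes tested. Without 7_2 and 9_3 the medians after *R. flavefaciens* were 0.10, 0.08 and -0.02. With *Ndufa4*, *Ndufa4l2* and *Atp5s* also left out, 11 of 35 and 5 of 15 then had an unadjusted p under 0.05 with a higher value. Of all genes tested in that fit, 4.6% had such a p with a higher value.

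**Figure D5:**
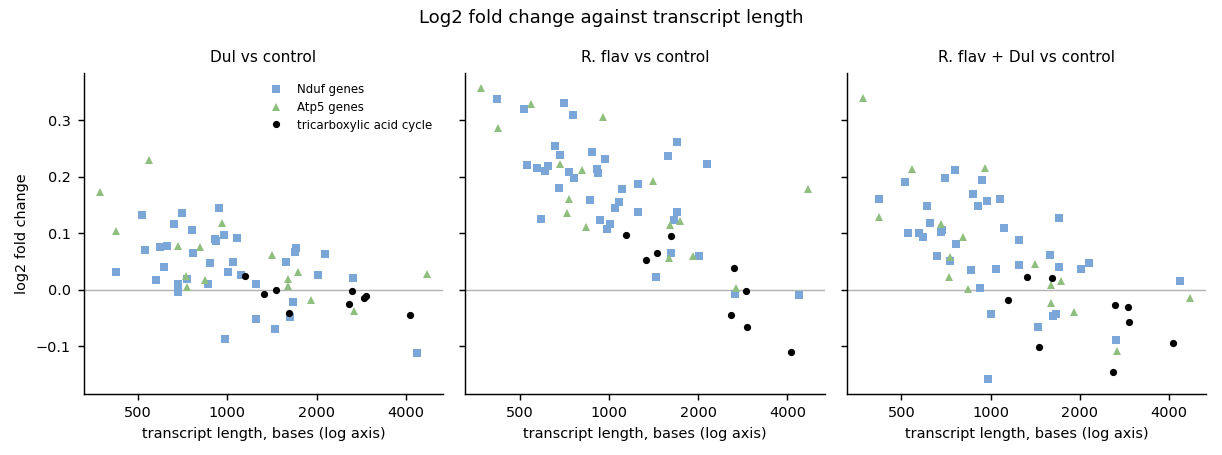
Log2 fold change against transcript length (log axis, bases) for the 9 cycle enzymes (black circles), 37 Nduf genes (blue squares) and 16 Atp5 genes (green triangles) in 3 comparisons with control. After *R. flavefaciens* the values tend to be lower at greater length, with exceptions such as *Atp5g1*, a subunit of ATP synthase, of 4715 bases at 0.18, and the cycle enzymes run from 0.10 at 1142 bases for *Sdhb* to -0.11 at 4127 bases for *Ogdh*.

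Within the groups, the 9 transcripts varied together from mouse to mouse. With each value taken as the deviation from its group mean, 35 of the 36 pairs had a positive Pearson's r over the 24 mice, with a median of 0.63. By Pearson's r *Cs* and *Idh3a* were the closest pair, with r = 0.84 and Spearman's rho = 0.74 (permutation p = 9e-05 and 0.00057, adjusted over the 36 pairs 0.00144 and 0.0032), and r was 0.71 without the 2 mice farthest from the median of *Cs*. By Spearman's rho the closest were *Fh1* and *Mdh2*, with rho = 0.81 and r = 0.81 (permutation p = 0.00031 and 0.00027, adjusted over the 36 pairs 0.0032 and 0.00162), and r was 0.77 without the 2 farthest mice. *Idh3b* and *Mdh2* had r = 0.80 and rho = 0.79, and r = 0.80 without the 2 farthest mice, above that of *Cs* and *Idh3a*. *Idh3g* and *Ogdh* were the 1 pair with a negative r, -0.08, with rho = 0.00 (permutation p = 0.791 and 0.987), and r was 0.38 without the 2 farthest mice. The median r of the 36 pairs was also 0.63 without 7_2 and 9_3. All pairs rest on the same 24 libraries, each with 1 scaling factor.

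Such variation was not limited to the 9. The genes most alike to their mean, by Pearson's r of log2 values over the 24 mice, were *Tuba4a* with 0.93, *Nars* with 0.93, *Ndrg4* with 0.93, *Tubb4b* with 0.93, *Tubb3* with 0.92 and *Ppp2r1a* with 0.91. *Tuba4a*, *Tubb4b* and *Tubb3* encode tubulins, *Nars* a cytosolic asparaginyl-tRNA synthetase and *Ppp2r1a* a scaffold subunit of protein phosphatase 2A. On deviations from the group means, r lay between 0.91 for *Tubb3* and 0.94 for *Tuba4a*. *Tuba4a* had a mean of 6659 normalized counts in controls and 5888 in the combined group.

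The wider pathway was read from a list of 51 genes around the 9, all of them in the table and tested. It comprised pyruvate entry, the other cycle enzymes and isozymes, succinate dehydrogenase assembly, lipoate synthesis, malic enzymes and citrate use, links to glutamate and GABA, and carriers. After duloxetine alone 1 of 51 had an unadjusted p under 0.05 with a higher value and 0 with a lower one. After *R. flavefaciens* alone the counts were 6 and 4, in the combined group against control 2 and 4, and in the combined group against *R. flavefaciens* alone 4 and 11. The shares over all genes tested were 3.83%, 19.6%, 16.8% and 19.7% in these comparisons, so the counts of the 51 are not read as a trait of the list. Of all 51 genes in these 4 comparisons, *Mpc2* in the last was called at an adjusted p under 0.05 (limma), and no other was. In that comparison 2.23% of all genes tested were called, so 1 of 51 is near the background and is not read as a trait of the list either.

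*Mpc2* encodes a subunit of the mitochondrial pyruvate carrier, through which pyruvate reaches the matrix. It ranged from 665 to 770 normalized counts with a median of 727 in controls, from 713 to 783 with a median of 734 after duloxetine, from 738 to 967 with a median of 814 after *R. flavefaciens* and from 635 to 756 with a median of 725 in the combined group. The *R. flavefaciens* group stood highest, with 9_3 at its top, and overlapped the others. *Mpc2* was lower in the combined group than after *R. flavefaciens* alone, with a log2 fold change of -0.23 and a standard error of 0.06 (limma adjusted p = 0.0333), and without 7_2 and 9_3 the value was -0.17 (limma adjusted p = 0.125). The call was lost when 7_2, 9_1, 9_3, 11_3, 11_4 or 12_2 was left out alone, with limma adjusted p-values from 0.0531 to 0.102. It was also lost with only the groups compared (limma adjusted p = 0.174), under quantile normalization (0.0615) and under rescaling to the 75th percentile (0.0589). The nuclear-retained RNAs, astrocyte and inhibitory neuron markers given beside *Mdh2* differed in the same comparison, and their part in the value of *Mpc2* was not tested.

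Of the 14 genes of pyruvate entry, 7 were above and 7 below 0 after *R. flavefaciens*, with a median of 0.01. *Pdk1* and *Pdk3* encode kinases that switch off the pyruvate dehydrogenase complex. *Pdk3* ranged from 345 to 384 normalized counts with a median of 362 in controls and from 264 to 335 with a median of 324 in the *R. flavefaciens* group, so these 2 groups did not overlap, as was the case for 1.62% of all genes tested. The gene is among those named for a small p in this comparison, so nothing further is read from this. Its log2 fold change was -0.20 with a standard error of 0.06 (limma adjusted p = 0.0962), and in the combined group it ranged from 316 to 394 and overlapped the controls. *Pdk1* ranged from 1035 to 1197 with a median of 1078 in controls and from 854 to 1038 with a median of 950 after *R. flavefaciens*, with a log2 fold change of -0.21 and a standard error of 0.05 (limma adjusted p = 0.0727). *Pdpr*, a regulatory subunit of the phosphatase that acts against these kinases, had -0.31 with a standard error of 0.11 (limma adjusted p = 0.113), with its lowest value, 207 normalized counts, in 9_3. Without 9_3 the value of *Pdpr* was -0.17 with a standard error of 0.07 (limma adjusted p = 0.306).

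The remaining subunits of succinate dehydrogenase, its membrane anchors *Sdhc* and *Sdhd*, had log2 fold changes of 0.14 and 0.11 after *R. flavefaciens*, with standard errors of 0.06 and 0.04 (limma adjusted p = 0.165 and 0.171). The highest mouse for both, as for *Sdhb*, was 9_3. Without it the value of *Sdhc* was 0.09, and without 7_2 and 9_3 that of *Sdhd* was 0.06. In the combined group against control *Sdhc* had 0.12 with a standard error of 0.06 (limma adjusted p = 0.311), while *Sdhd* had -0.03 with a standard error of 0.04 (limma adjusted p = 0.795), from means of 755 ± 35.7 and 769 ± 20.8 normalized counts (SD, n = 6).

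In the combined group the lowest p-values of the wider list belonged to *Slc25a22*, a mitochondrial glutamate carrier, and *Suclg2*, a subunit of the GTP-forming succinyl-CoA ligase. *Slc25a22* ranged from 3917 to 4592 normalized counts with a median of 4328 in controls and from 3608 to 4184 with a median of 3959 in the combined group, with a log2 fold change of -0.14 and a standard error of 0.05 (limma adjusted p = 0.155). *Suclg2* had 0.25 with a standard error of 0.09 (limma adjusted p = 0.192), and *Glud1*, glutamate dehydrogenase, 0.15 with a standard error of 0.06 (limma adjusted p = 0.218). *Pdk2*, another pyruvate dehydrogenase kinase, and *Dlat*, the acetyltransferase of that complex, had -0.14 and -0.12, each with a limma adjusted p of 0.227 or 0.230. The lowest *Slc25a22* and *Dlat* values of the group were those of 12_2, the mouse with the lowest *Idh3a* and *Mdh2*.

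Markers of other cells and of RNA fractions were read beside the cycle enzymes. None of the genes in these lists was called at an adjusted p under 0.05 (limma) in the comparisons with control. The summed level of 5 blood markers was 349 ± 65.7 normalized counts in controls, 462 ± 265 after duloxetine, 598 ± 204 after *R. flavefaciens* and 633 ± 351 in the combined group (SD, n = 6). Of these 5, led by *Hbb-bs*, 4 had an unadjusted p under 0.05 with a higher value after *R. flavefaciens* and 5 in the combined group, and of 6 microglial markers 3 and 4, against 8.86% and 8.08% of all genes tested with such a p and a higher value. After duloxetine alone 4 of the 6 microglial markers had such a p with a higher value, against 2.2% of all genes tested. Of 6 markers of inhibitory neurons, 3 did so after *R. flavefaciens*, where their sum was 10927 ± 388 normalized counts against 10051 ± 464 in controls. Of 5 nuclear-retained RNAs, led by *Meg3*, 4 were higher at an unadjusted p under 0.05 in the combined group against control, where their sum was 45312 ± 7072 normalized counts against 33455 ± 4753. In the same comparison 2 of 6 astrocyte markers were higher at such a p, with a sum of 68465 ± 8226 against 61655 ± 3952. So were 2 of 6 markers of endothelial cells and pericytes, with a sum of 5018 ± 778 against 4389 ± 264. Transcripts encoded by mitochondrial DNA took 3.74% ± 0.17 of the counts in controls, 4.41% ± 0.51 after duloxetine, 4.19% ± 0.58 after *R. flavefaciens* and 4.81% ± 0.69 in the combined group. The highest shares of the last 3 groups were 5.22% in 6_2, 5.23% in 9_3 and 5.76% in 12_2. The sum of the 6 excitatory markers was 101553 ± 3644 in controls and 105076 ± 5866 in the combined group, carried by *Camk2a*, while the median log2 fold change of the 6 was -0.11. Their part in the values of the cycle enzymes was not tested.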

How the data were processed

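Poly(A) RNA of 24 mPFC samples was sequenced by the authors, mapped with TopHat2 (2.1.0, with Bowtie2 2.2.6 per the submitters' processing notes) to GRCm38.p5 per the methods and normalized with DESeq2 (1.18.1). The notes name mm9, but the gene positions in the table are those of GRCm38. The counting program, strand setting and gene filter are not given in the sources used here. The deposited values are a read signal per gene, that is, counts divided by 1 size factor per mouse. Of the 370875 values above 0, 99.99% were whole multiples of 1 step per mouse within 0.0051 reads, which gave back the reads used in DESeq2 (1.42.0) and edgeR (4.0.16) as alternatives.

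Log2(normalized count + 1) values of the 14974 genes averaging 10 or more were fitted over all 4 groups with limma (3.58.1, R 4.3.3), with Benjamini-Hochberg adjustment over all genes tested. Fold changes are on that scale. Single genes were also compared by exact permutation tests in Python 3.11.15 with SciPy 1.17.1. Fits were tested on simulated data. Replicates differed beyond sampling noise in all 60 pairs (chi-square per degree of freedom of at least 2.07). Transcript lengths came from GENCODE release 21 of the mouse, with 15438 of the table's IDs matched, and the length trend was a loess curve (span 0.3) per mouse. Promoters came from RefSeq.

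Named were all 9 members, genes of the 51 called after adjustment, the 3 with the lowest p in each direction against control for either group given the bacterium, and the 6 most alike. The members and lists were chosen with earlier results of these data known, so no list is independent support. Leaving out mice 7_2 and 9_3 together, and the subunit ratios, were chosen after seeing the data.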

Additional observations from a re-analysis of the deposited data

Results flagged for a closer look

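*Sdha* in mouse 8_4 of the *R. flavefaciens* group stood apart from the other 5 mice, with 4817 normalized counts against 5242 in the nearest of them. The gap was 0.63 of the range of the group, just past the critical value of Dixon's test for 6 samples. Of 52 groups of 6 values checked this way, 36 of them of the 9 genes, 1 was past the critical value, and chance gives about 1 in 20. The same mouse had the highest sums of choroid plexus markers (791 normalized counts) and of striatal markers (4720), and their part in the *Sdha* value was not tested.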

How the results depend on the processing

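None of the 9 genes passed an adjusted p of 0.05 under any alternative except *Mdh2* in the combined group against *R. flavefaciens* alone, by DESeq2 and without 8_4, 10_2 or 12_4. The 9 genes had means of 947 normalized counts or more, and genes averaging under 10 were not tested. No paired analysis was possible because no source says that mouse numbers pair the groups. A random block by the first label number, with 11 blocks and a correlation of -0.0451, was fitted as an alternative. Each first number occurs in a single group, so the block lies within the groups and cannot pair mice across them.

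The number of genes called at an adjusted p under 0.05 varied most. After *R. flavefaciens* against control it was 4, and 488 by DESeq2, 221 with the replicate block, 1 with the length trend removed, and 0 with only the groups compared or without 7_2 and 9_3. In the combined group against control it was 15, and 217 by DESeq2, 196 with only the groups compared, 195 without 7_2 and 9_3, 77 with the length trend removed, 59 with the block, 30 for genes averaging 50 or more and 23 under rescaling to the 75th percentile. Against *R. flavefaciens* it was 334, and 624 by DESeq2, 533 with the block, 139 without 7_2 and 9_3 and 0 with only the groups compared. Against duloxetine it was 0, and 1 by DESeq2 or without 7_2 and 9_3, and for duloxetine against control 0, and 1 by DESeq2. For the bacterium averaged over the drug it was 4, and 441 by DESeq2, 8 with the length trend removed and 2 under quantile normalization. For the drug averaged over the bacterium it was 154, and 321 by DESeq2, 290 with the length trend removed and 255 with the block. Leaving out each mouse in turn gave 0 to 616, 5 to 154, 47 to 577, 0 to 2, 1 to 135 and 46 to 260 for *R. flavefaciens* against control, the combined group against control, *R. flavefaciens* and duloxetine, and the averaged bacterium and drug.

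Of the 9 genes, the number with an unadjusted p under 0.05 also varied. After *R. flavefaciens* it was 1, and 2 under rescaling, quantile normalization or DESeq2 and 0 with only the groups compared or with the length trend removed. For the combined group against control it was 1, and 3 with the length trend removed or without 7_2 and 9_3, 2 with only the groups compared or the block and 0 under quantile normalization. Against duloxetine it was 1, and 2 with the block, the length trend removed or without 7_2 and 9_3 and 0 under rescaling, quantile normalization or only the groups compared. Against *R. flavefaciens* it was 1, and 2 with the block. For the averaged bacterium it was 4, and 1 under rescaling or quantile normalization, for the averaged drug 1, and 0 under rescaling, quantile normalization or without 7_2 and 9_3, and for the interaction 1, and 0 with the length trend removed or without 7_2 and 9_3. Leaving out each mouse gave 0 to 3, 1 to 4, 1 to 4, 0 to 2, 1 to 4 and 0 to 2 in the order of comparisons used above, and 0 to 2 for the interaction. The cause of these changes was not tested.

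The median of the 9 genes after *R. flavefaciens* was 0.04, and -0.03 with the length trend removed. Several log2 fold changes changed sign, among them that of *Sdhb* after *R. flavefaciens*, 0.10 as deposited. Under rescaling to the 75th percentile, the values after duloxetine were 0.00748 for *Cs*, 0.0152 for *Fh1*, 0.0101 for *Idh3g*, 0.0174 for *Mdh2* and 0.00252 for *Sdha*, that after *R. flavefaciens* was 0.0136 for *Sdha*, and those in the combined group were 0.00562 for *Fh1*, 0.00113 for *Sdha* and 0.0131 for *Sdhb*. Under quantile normalization they were 0.0102 for *Cs*, 0.0127 for *Fh1*, 0.00933 for *Idh3g*, 0.0214 for *Mdh2* and 0.00127 for *Sdha* after duloxetine, 0.0491 for *Sdha* after *R. flavefaciens*, and 0.00292 for *Cs*, 0.00712 for *Fh1*, 0.031 for *Sdha* and 0.0209 for *Sdhb* in the combined group. With the length trend removed they were -0.0488 for *Idh3g*, -0.0267 for *Mdh2* and -0.017 for *Sdhb* after *R. flavefaciens*, -0.0439 for *Idh3b* and -0.0525 for *Idh3g* in the combined group and -0.0211 for *Sdhb* after duloxetine. Without 7_2 and 9_3 they were -0.0161 for *Fh1*, -0.0238 for *Idh3g* and -0.00101 for *Sdhb* after *R. flavefaciens*, and *Mdh2* after duloxetine was 0.000536 by DESeq2 and 0.00122 by edgeR. Leaving out each mouse spanned 0 for *Cs* (-0.025 to 0.00388), *Fh1* (-0.0227 to 0.0154), *Idh3g* (-0.0323 to 0.00463) and *Mdh2* (-0.01999 to 0.0135) after duloxetine, *Sdha* (-0.0141 to 0.0236) after *R. flavefaciens* and *Sdhb* (-0.0532 to 0.00219) in the combined group. Of the values of single genes under the other alternatives, 269 kept their sign and 30 changed it. A pseudocount of 0.1 and no filter changed no count of calls by over 1.5 times.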
